A study of Mus musculus with 6 samples.

Results

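The 7 genes of circulating blood cells, measured in the frontal cortex of mice given the histone deacetylase inhibitor SAHA or vehicle, are described here. They are 2 genes of the red cell lineage, Slc4a1 and Alas2, and 5 genes of neutrophils, S100a8, S100a9, Camp, Ngp and Ltf, out of 19938 genes measured. They were chosen by name with the contrast of SAHA and saline in these libraries already known. Their differences are therefore a description and carry no test. Each matched 1 probe set that pairs with a single gene symbol. All libraries came from wild type mice of strain 129S6/SvEv aged 8 to 12 weeks. In 3 libraries the mice had received 20 mg/kg SAHA (suberoylanilide hydroxamic acid, vorinostat) for 21 days, and in 3 they had received vehicle, called saline in the sample titles, over the same time. The mice were killed 1 day after their final dose. RNA was measured on a whole-transcript array, and levels are log2 signals from RMA, a method that removes background, brings the arrays to a common distribution and combines the probes of each gene. The sources used here do not say whether the libraries hold RNA of different mice, nor whether the brain was perfused to clear blood from its vessels.

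Red cells carry oxygen and lose their nucleus as they mature, so the youngest of them, the reticulocytes, hold most of the RNA of the lineage in blood. Slc4a1 encodes band 3, the chloride and bicarbonate exchanger of the red cell membrane, and Alas2 encodes the erythroid enzyme that starts heme synthesis. Neutrophils are short-lived white cells that kill microbes with proteins stored in granules. S100a8 and S100a9 encode the partner chains of calprotectin, the main calcium-binding protein of their cytoplasm. Camp encodes the precursor of the antimicrobial peptide CRAMP, Ngp a granule protein related to it, and Ltf the iron-binding protein lactoferrin. The granule genes are transcribed mainly while neutrophils form in the bone marrow, whereas S100a8 and S100a9 RNA stays abundant in neutrophils of the blood.

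The stretches of 120 bases before the transcription start are shown for the 6 members that the RefSeq promoter table of build GRCm38.p6 holds, because the erythroid and the granule genes are known targets of different transcription factors. Each reads 5′ to 3′ on the strand of the gene. Capitals mark every match, on either strand, to GATAA (the core bound by GATA factors of red cells), TTGCNNAA (a form bound by C/EBP factors of granulocytes) or GAGGAA (a core of Ets factors such as PU.1).
Alas2, chrX:150547297-150547416, plus strand: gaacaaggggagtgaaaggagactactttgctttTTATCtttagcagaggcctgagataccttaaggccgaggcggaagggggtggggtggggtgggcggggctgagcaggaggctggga
S100a8, chr3:90668951-90669070, plus strand: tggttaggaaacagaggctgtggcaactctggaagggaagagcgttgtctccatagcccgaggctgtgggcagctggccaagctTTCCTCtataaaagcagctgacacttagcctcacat
S100a9, chr3:90695722-90695841, minus strand: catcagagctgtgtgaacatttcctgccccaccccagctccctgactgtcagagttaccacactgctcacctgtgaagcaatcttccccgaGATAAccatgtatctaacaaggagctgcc
Camp, chr9:109849457-109849576, minus strand: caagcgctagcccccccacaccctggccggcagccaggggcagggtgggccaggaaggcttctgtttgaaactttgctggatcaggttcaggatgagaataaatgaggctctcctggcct
Ngp, chr9:110419688-110419807, plus strand: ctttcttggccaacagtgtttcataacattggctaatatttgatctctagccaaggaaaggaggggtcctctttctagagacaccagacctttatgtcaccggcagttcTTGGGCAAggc
Ltf, chr9:111019172-111019291, plus strand: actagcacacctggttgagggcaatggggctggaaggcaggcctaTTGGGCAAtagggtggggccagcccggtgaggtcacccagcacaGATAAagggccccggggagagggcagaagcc

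In these windows GATAA matched once each in Alas2, S100a9 and Ltf, starting 86, 29 and 31 bases before the start site. TTGCNNAA matched in Ngp and Ltf, 11 and 75 bases before it, and GAGGAA in S100a8, 36 bases before it. The Camp window held none of the 3, and no matches overlapped. Among 32851 promoter windows of the same length, 10.5% held GATAA, 4.15% held TTGCNNAA and 11.6% held GAGGAA. The matches describe these letters and show no binding.

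The array medians lay between 6.66 and 6.75, and the differences of the members depended on the scaling of the arrays, as given below. Having 6 arrays sets the precision, with a median standard error (SE) of 0.0771 for a log2 difference. Markers of the labelled tissue were bright, with a median signal of 10.7 over 7 neuronal, 10.1 over 5 astrocyte and 9.11 over 3 oligodendrocyte genes. Saline replicate 1 stood apart with a signal of 10.9 for Xist, the RNA of the inactive X chromosome, where the other libraries lay between 4.63 and 4.88. The same library also had Y-linked signals, of 9.20 for Eif2s3y, 8.11 for Kdm5d and 8.19 for Uty. SAHA replicate 3 stood apart in the Y-linked gene Eif2s3y, at 7.80 where the others lay between 9.18 and 9.25. It was also the lowest library for Kdm5d, at 7.23, and Uty, at 6.74, with Xist at 4.76. The reason was not tested. Values without both libraries are given below. As a rough guide to the dimmest signals, 1196 genes for odorant and pheromone receptors of the nose were taken. Their signals had a median of 4.61 and a 95th percentile of 6.34. The 5 neutrophil members lay below that percentile and the 2 erythroid members above it, Slc4a1 by little, at a mean of 6.37. Probe sets differ in brightness for equal RNA, so this does not show whether a member was present.

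In the deposited values, each lineage held members with groups apart and members with overlapping groups. Fewer members had groups apart after quantile normalization or cyclic loess, as given below. Slc4a1, S100a8, S100a9 and Camp were higher in all 3 SAHA libraries than in all 3 saline libraries, while Alas2, Ngp and Ltf overlapped between the groups. Groups were apart in this direction for 13.6% of all genes, and since the contrast was known when the members were chosen, nothing is read from the count. The median difference was 0.21 over the 2 erythroid members and 0.21 over the 5 neutrophil members, and 0.011 over all genes. In bulk tissue, more cells of a type and more RNA per cell cannot be told apart.

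**Figure D1:**
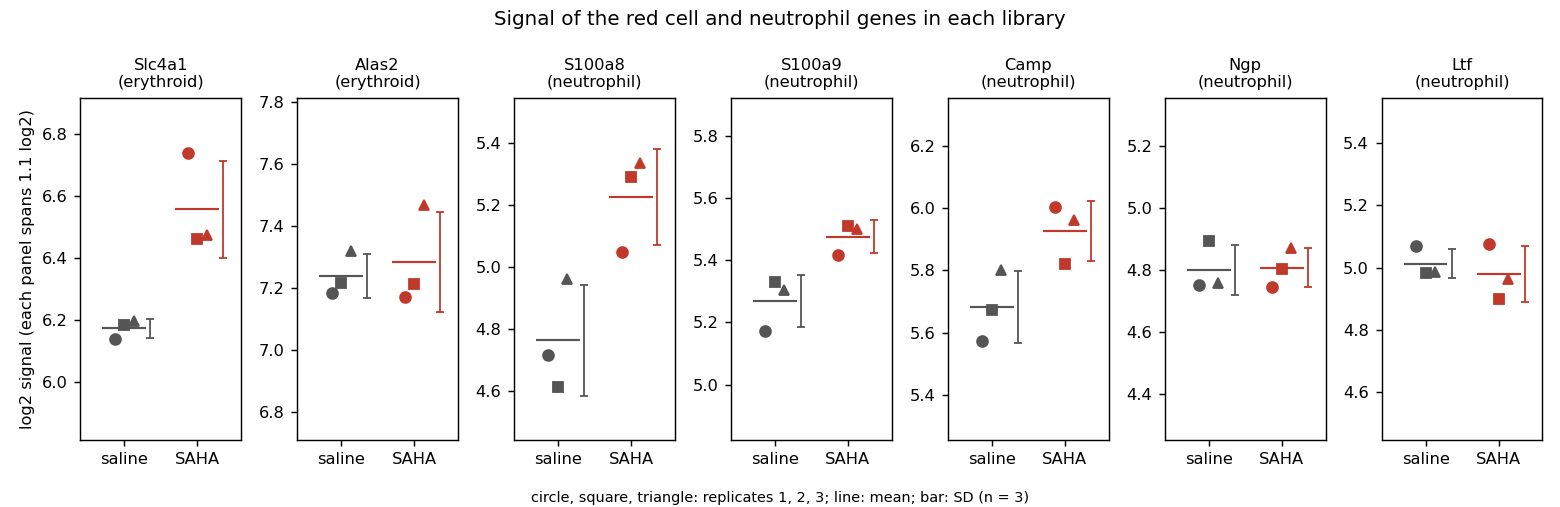
Log2 signal of each gene in the 3 saline (grey) and 3 SAHA (red) libraries, with the mean as a line and the SD as a bar (n = 3); every panel spans the same height in log2. The groups are apart for Slc4a1, S100a8, S100a9 and Camp and overlap for Alas2, Ngp and Ltf.

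Of the erythroid genes, Slc4a1 had signals of 6.14, 6.18 and 6.20 in saline replicates 1 to 3 and of 6.74, 6.46 and 6.47 in SAHA replicates 1 to 3. The saline libraries lay within 0.057 of each other, and SAHA replicate 1 stood above the other two SAHA libraries. Saline averaged 6.17 ± 0.030 and SAHA 6.56 ± 0.16 (SD, n = 3), a difference of 0.38 (SE 0.084, 95% confidence interval 0.19 to 0.58), or 1.30-fold. Alas2 had signals of 7.19, 7.22 and 7.32 in saline and of 7.17, 7.21 and 7.47 in SAHA. The lowest and the highest of its 6 values were both SAHA libraries. Its difference was 0.044 (SE 0.090, interval -0.16 to 0.25), with means of 7.24 ± 0.070 and 7.28 ± 0.16 (SD, n = 3). The pair of red cell genes thus did not share a library pattern: SAHA replicate 1 was the highest library for Slc4a1 and the lowest for Alas2.

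Of the calprotectin genes, S100a8 had signals of 4.72, 4.61 and 4.96 in saline and of 5.05, 5.29 and 5.34 in SAHA. The highest saline and the lowest SAHA library were 0.087 apart. The means were 4.76 ± 0.18 and 5.22 ± 0.15 (SD, n = 3), a difference of 0.46 (SE 0.11, interval 0.20 to 0.72), or 1.38-fold. Its partner S100a9 had signals of 5.17, 5.33 and 5.30 in saline and of 5.42, 5.51 and 5.50 in SAHA. All 3 SAHA values were higher, again with a gap of 0.087 between the groups. The difference was 0.21 (SE 0.067, interval 0.053 to 0.36), or 1.15-fold, from means of 5.27 ± 0.084 and 5.48 ± 0.052 (SD, n = 3).

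Of the granule genes, Camp had signals of 5.57, 5.67 and 5.80 in saline and of 6.003, 5.82 and 5.96 in SAHA. The groups were apart by only 0.017, between saline replicate 3 and SAHA replicate 2. The difference was 0.25 (SE 0.081, interval 0.057 to 0.43), or 1.19-fold, from means of 5.68 ± 0.12 and 5.93 ± 0.096 (SD, n = 3). Ngp had signals of 4.75, 4.89 and 4.76 in saline and of 4.75, 4.80 and 4.87 in SAHA, and its highest value was in a saline library. Its difference was 0.0068 (SE 0.068, interval -0.15 to 0.16). Ltf had signals of 5.07, 4.98 and 4.99 in saline and of 5.08, 4.90 and 4.96 in SAHA, with the SAHA values on both sides of the saline ones. It was the 1 member with a lower mean in SAHA, at -0.034 (SE 0.068, interval -0.19 to 0.12). The 3 granule genes, which lie on chromosome 9, therefore differed in their values, with Camp higher in each SAHA library and the other two overlapping.

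In the deposited values dim genes were higher in SAHA as a body, so each member was set beside the 500 genes nearest to it in mean signal. These had median differences between 0.095 and 0.12 around Slc4a1 and the 5 neutrophil genes, and of 0.00067 around Alas2. Relative to them S100a8 was higher by 0.34 and Slc4a1 by 0.29. Both lay at percentile 98.4 of the genes of their own signal. Camp was higher by 0.14, at percentile 85.8, and S100a9 by 0.11, at percentile 77.2, both inside the range from the 5th to the 95th percentile. Alas2 differed from its neighbours in signal by 0.044, at percentile 62.8, while Ngp and Ltf differed by -0.093 and -0.15, at percentiles 28.8 and 19.0. After the median of these genes was taken from each library, Slc4a1 was the 1 member with groups apart and SAHA higher, with SAHA libraries at 0.43, 0.23 and 0.20 over the saline mean and saline libraries between -0.012 and 0.0077. For S100a8 the SAHA libraries were then at 0.14, 0.46 and 0.44 and saline replicate 3 at 0.18, so SAHA replicate 1 lay below it. Ltf had groups apart the other way on this scale, with SAHA libraries at -0.080, -0.18 and -0.19 and saline libraries at 0.080, -0.044 and -0.045.

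**Figure D2:**
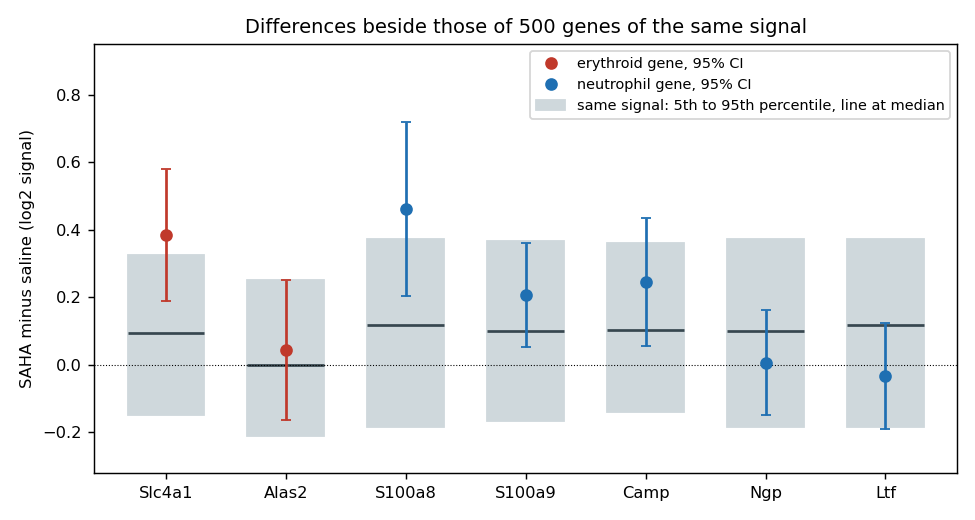
Difference of SAHA minus saline in log2 signal for each gene (points, with 95% confidence intervals) over the 5th to 95th percentile range (grey box) and median (dark line) of the 500 genes nearest in mean signal. Slc4a1, at 0.38, and S100a8, at 0.46, lie above their boxes, and the other 5 genes lie inside theirs.

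The scaling of the arrays moved these values and those of the genes of the same signal. Around Slc4a1 and the 5 neutrophil genes, the medians of the latter lay between 0.027 and 0.063 after quantile normalization. They lay between 0.0080 and 0.034 after cyclic loess. Relative to those genes, S100a8 was still higher by 0.34 and Slc4a1 by 0.29 after cyclic loess. After quantile normalization Slc4a1 differed by 0.33, S100a8 by 0.41, Camp by 0.17 and S100a9 by 0.14, and after cyclic loess by 0.31, 0.38, 0.15 and 0.12, so all 4 kept their sign. The groups stayed apart for Slc4a1 and S100a8 after quantile normalization and for Slc4a1 alone after cyclic loess. Under those scalings Ngp differed by -0.040 and -0.069, its sign turned, and Ltf by -0.089 and -0.12. Alas2 differed by 0.030 and 0.026, and by -0.0015 after median centring. Without saline replicate 1 and SAHA replicate 3, the libraries that stood apart in X- and Y-linked genes, Slc4a1 differed by 0.41, S100a8 by 0.38, S100a9 by 0.15 and Camp by 0.17, each with groups apart. Alas2, which is X-linked, then differed by -0.075, with both SAHA values below both saline values, Ngp by -0.051 and Ltf by 0.0017. Without SAHA replicate 1, Ltf differed by -0.082, with both remaining SAHA values below the saline values.

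**Figure D3:**
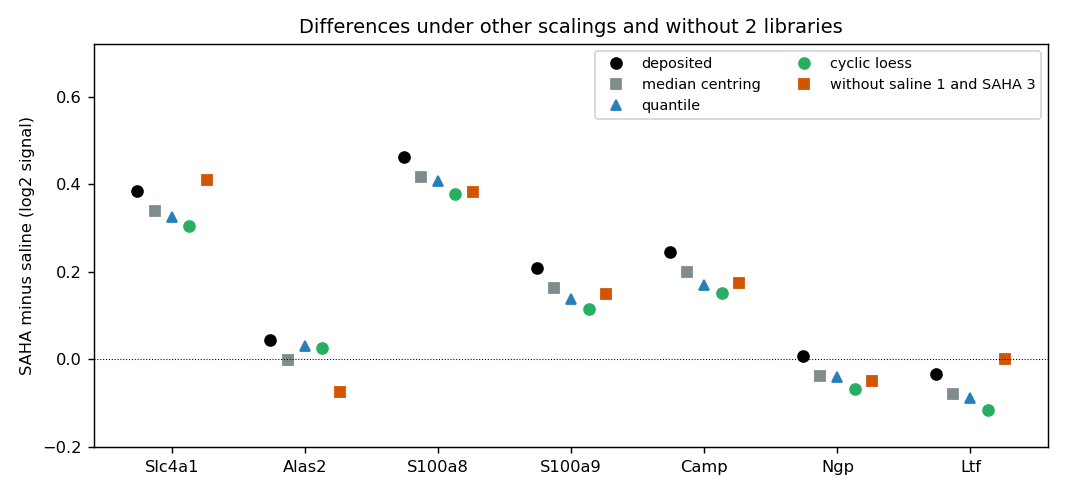
Difference of SAHA minus saline in log2 signal for each gene as deposited, after 3 other scalings, and without saline replicate 1 and SAHA replicate 3. Slc4a1, S100a8, S100a9 and Camp lie above 0 in every setting shown, and the signs of Alas2, Ngp and Ltf turn between settings.

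Other genes of the lineages were listed from general knowledge of blood cells, with earlier results of these data known, and none passed. Their counts are therefore a description and give no independent test of the members. Over all 19938 genes, 0 (0%) passed an adjusted p of 0.05 by Benjamini-Hochberg in limma, the lowest being 0.116, while 3472 genes had an unadjusted p under 0.05. Of 27 further erythroid genes 18 were measured; the 9 others, among them the adult globins, were not analysed here. Signals were higher in SAHA for 15 of the 18, with a median difference of 0.19, where 52.9% of all genes and on average 73.7% of genes of the same signal were higher. Groups were apart with SAHA higher for 7 of 18, or 38.9%, against 13.6% of all genes and on average 20.4% of genes of the same signal, and apart with SAHA lower for 0, against 10.4% of all genes. In limma 0 passed, with a lowest adjusted p of 0.120, and 7 had an unadjusted p under 0.05, all with SAHA higher, against 11.9% of all genes. Relative to genes of the same signal 14 of 18 were higher, with a median of 0.078. The list was dim: 14 of the 18 genes lay below 6.34, the 95th percentile of the receptor genes of the nose. The median was 0.10 after cyclic loess, with groups apart for 5, and 0.16 without saline replicate 1 and SAHA replicate 3.

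Hemgn, a nuclear protein of blood progenitors, had signals of 6.11, 6.19 and 6.04 in saline and of 6.52, 6.54 and 6.40 in SAHA, and the groups were clearly apart. It differed by 0.37 (SE 0.070, adjusted p = 0.120 in limma). Epor, the receptor for erythropoietin, had signals of 6.49, 6.65 and 6.56 in saline and of 6.94, 6.82 and 6.94 in SAHA, a difference of 0.34 (SE 0.068). Gata1, the transcription factor that drives red cell genes, differed by 0.29 (SE 0.12), with 6.35, 6.04 and 6.09 in SAHA and 5.96, 5.63 and 6.03 in saline, so its groups were nearly touching. The embryonic globin gene Hbb-bh1 differed by 0.30 (SE 0.11), from dim means of 4.34 in saline and 4.64 in SAHA. Klf1, another erythroid transcription factor, differed by 0.047 (SE 0.095) with overlapping groups, and Rhag, of the Rh complex in the membrane, by -0.027 (SE 0.11). Both were named after their values were seen. The other enzymes of heme synthesis, which all cells use, had 3 of 7 higher and a median of -0.027. Alas1, the form of the Alas2 enzyme found outside red cells, was the 1 of them with groups apart, with saline at 8.05 ± 0.010 and SAHA at 7.91 ± 0.097 (SD, n = 3), a difference of -0.14 (SE 0.066).

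**Figure D4:**
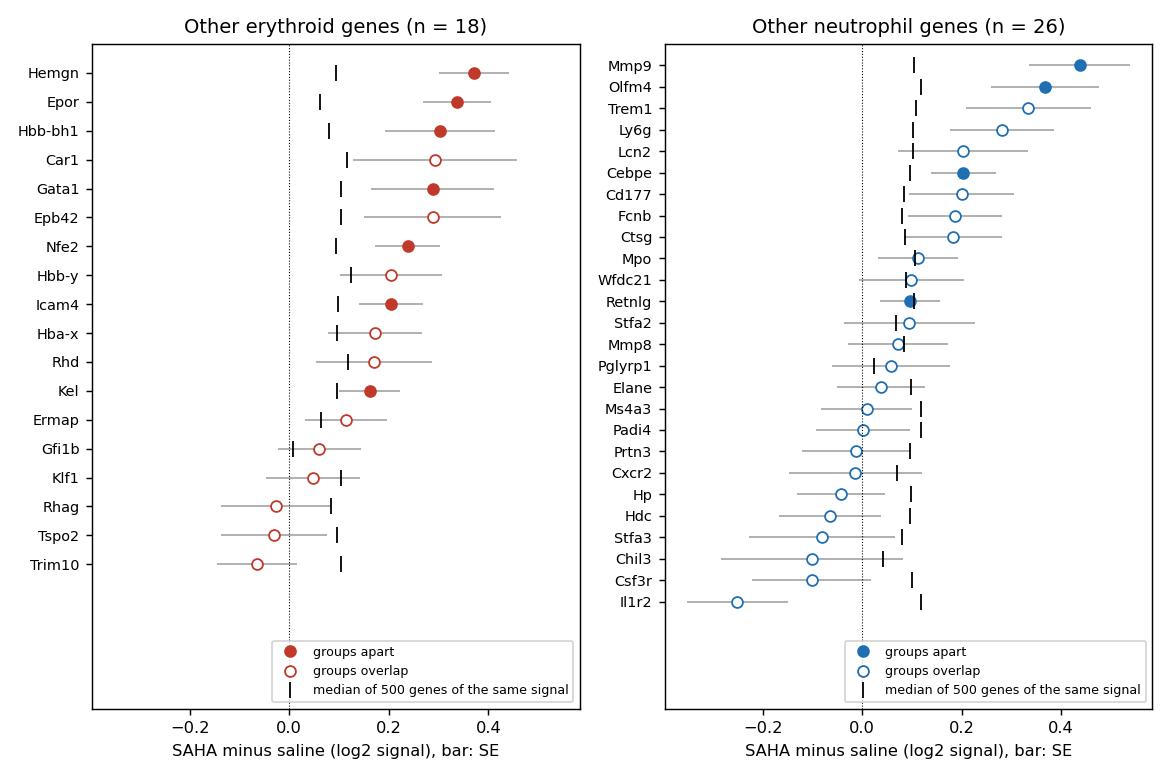
Difference of SAHA minus saline in log2 signal for 18 erythroid (left) and 26 neutrophil (right) genes other than the 7 described, with the SE as bars, filled points where the groups are apart and black ticks at the median of genes of the same signal. Most erythroid genes lie to the right of their tick (14 of 18), and the neutrophil genes lie on either side (13 of 26 to the right).

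Of 30 further neutrophil genes 26 were measured, of which 21 lay below 6.34, the 95th percentile of the receptor genes of the nose. Signals were higher in SAHA for 18, with a median difference of 0.083, but 13 of 26 were higher than genes of the same signal, with a median of -0.0014 against them. Groups were apart with SAHA higher for 4 of 26, or 15.4%, against 13.6% of all genes and on average 19.8% of genes of the same signal. In limma 0 passed, with a lowest adjusted p of 0.129. An unadjusted p under 0.05 was reached by 5 with SAHA higher, against 11.9% of all genes, and by 1 with SAHA lower, against 5.56% of all genes. The last was Il1r2, a decoy receptor for interleukin 1, named after its value was seen, at -0.25 with overlapping groups. The median was 0.014 after cyclic loess, with groups apart for 1.

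Mmp9, a gelatinase of neutrophil granules, had signals of 5.51, 5.21 and 5.61 in saline and of 5.87, 5.91 and 5.86 in SAHA, a difference of 0.44 (SE 0.10, adjusted p = 0.129 in limma). The SAHA libraries lay close together and the saline libraries were spread. Olfm4, a granule protein of a subset of neutrophils, differed by 0.37 (SE 0.11), Cebpe, the C/EBP factor of late granule genes, by 0.20 (SE 0.065) and Retnlg, a secreted resistin-like protein, by 0.096 (SE 0.060). The genes named next were chosen after their values were seen. Mpo, myeloperoxidase, differed by 0.11 (SE 0.081), Elane, neutrophil elastase, by 0.037 (SE 0.088), and Prtn3, proteinase 3, by -0.012 (SE 0.11), each with overlapping groups. Ly6g, the surface marker used to sort mouse neutrophils, differed by 0.28 (SE 0.10) with overlapping groups.

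Families and positions gave mixed values. Of 14 other S100 genes 10 were higher, with a median of 0.045, where 52.9% of all genes were higher. S100z differed by 0.49 (SE 0.083, adjusted p = 0.116 in limma), with 4.48, 4.19 and 4.39 in saline and 4.79, 4.85 and 4.89 in SAHA. S100a6 went the other way by -0.43 (SE 0.12), from 7.68 ± 0.23 to 7.25 ± 0.13 (SD, n = 3). S100a8 and S100a9 neighbour each other on chromosome 3. The measured coding genes on either side of the pair, S100a7a and Pglyrp4, differed by 0.23 (SE 0.11) and 0.23 (SE 0.083), the first with overlapping groups. Beside Camp, Nme6 and Cdc25a differed by 0.078 (SE 0.12) and -0.069 (SE 0.080), both with overlap. Beside Ngp, Ptpn23 and Klhl18 differed by 0.12 (SE 0.074) and 0.17 (SE 0.077), Klhl18 with groups apart. Next to Ltf, Rtp3 and Ccrl2 differed by 0.17 (SE 0.069) and 0.13 (SE 0.085), Rtp3 with groups apart. Those by Slc4a1, Ubtf and Rundc3a, differed by -0.019 and 0.10, Rundc3a with groups apart. Those by Alas2, Apex2 and Tro, differed by 0.19 and -0.022, with overlap. Of 8 relatives of Slc4a1 in the Slc4 family of bicarbonate transporters 6 were higher, with a median of 0.056, and Slc4a2, an exchanger of many tissues, differed by 0.23 (SE 0.059). Trf and Meltf, the relatives of Ltf, had a median of -0.039. Of 5 measured genes for proteins that bind the products of S100a8, S100a9, Camp or Ltf, 3 were higher, with a median of 0.035. Ager, the RAGE receptor, differed by 0.18 (SE 0.077), and Bsg, basigin, by -0.044 (SE 0.055), each with groups apart. In these 4 lists 0 genes passed limma.

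Most listed markers of platelets, vessel cells, other white cells and choroid plexus had higher signals in SAHA. Their part in the values of the members was not tested. Over all genes 52.9% were higher, and groups were apart with SAHA higher for 13.6% and lower for 10.4%. Each list is given with the range of its summed linear signal, in arbitrary units. Bright probe sets weigh most in such a sum, and no sum over genes of the same signal was set beside it. The erythroid list summed to 1053 to 1118 in saline and to 1209 to 1276 in SAHA. The neutrophil list summed to 1303 to 1396 in saline and to 1395 to 1514 in SAHA, with overlap. For platelets 6 of 7 genes were higher, against on average 68.5% of genes of the same signal. Groups were apart with SAHA higher for 1 of them, against on average 18.1% of genes of the same signal. The median was 0.22, with sums of 483 to 527 in saline and 530.1 to 594 in SAHA. The platelet median was 0.11 without saline replicate 1 and SAHA replicate 3. Gp9, a subunit of a platelet adhesion receptor, differed by 0.22 (SE 0.066). For endothelium 8 of 11 were higher, against on average 48.3% of genes of the same signal. Groups were apart with SAHA higher for 4, against on average 12.6% of genes of the same signal, and lower for 1. The median was 0.092, with sums of 2333 to 2477 and 2536 to 2551. Among the endothelial genes Vwf, von Willebrand factor, differed by 0.29 (SE 0.075). Lower in SAHA were 3 of the 11, named after their values were seen. Itm2a differed by -0.19 (SE 0.070) with groups apart, and Pecam1 and Kdr by -0.021 and -0.040 with overlapping groups. For pericytes, smooth muscle and meninges 7 of 10 were higher, against on average 50.9% of genes of the same signal. Groups were apart with SAHA higher for 4, against on average 13.2% of genes of the same signal. The median was 0.076, with sums of 1870 to 1944 and 1979 to 2043. The median was 0.030 after median centring. Col1a2, a collagen of fibroblasts, differed by 0.22 (SE 0.067). The 3 lower genes of this list were Rgs5, Dcn and Lum, named after their values were seen. They differed by -0.0069, -0.0087 and -0.053, each with overlapping groups.

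Other white cells had 10 of 11 genes higher, against on average 72.4% of genes of the same signal. Their median was 0.068, with sums of 501 to 521 in saline and 516 to 581 in SAHA. Cd3g, a chain of the T cell receptor complex, differed by 0.34 (SE 0.082). The next genes were named after their values were seen. Cd3e and Cd3d, other chains of that complex, differed by 0.12 (SE 0.089) and 0.0073 (SE 0.10), and Plac8 by -0.15 (SE 0.15), each with overlapping groups. The median of the list was -0.028 relative to genes of the same signal. It was 0.022 after median centring, 0.00068 after quantile normalization and -0.016 after cyclic loess. Microglia had 5 of 10 higher, with a median of -0.012, and sums of 1789 to 1823 and 1751 to 1820. Their markers differed in both directions, Aif1 by -0.21 (SE 0.062) and Trem2 by 0.20 (SE 0.068), each with groups apart. Choroid plexus had 6 of 7 higher, with a median of 0.11 and sums of 395 to 561 and 458 to 464. Relative to genes of the same signal 3 of 7 were higher, with a median of -0.0018, and quantile normalization and cyclic loess gave medians of 0.041 and 0.015. Aqp1, a water channel of both choroid plexus and red cells, differed by 0.42 (SE 0.068, adjusted p = 0.116 in limma). Neuronal, astrocyte and oligodendrocyte markers had medians of 0.034, -0.022 and -0.047. After quantile normalization and cyclic loess the neuronal median was 0.061 and 0.089 and the astrocyte median 0.033 and 0.034, its sign turned. After median centring the neuronal median was -0.012. The oligodendrocyte median was -0.23 without saline replicate 1 and SAHA replicate 3, and SAHA replicate 3 had the highest summed signal, at 2342 where the other libraries lay between 1750 and 2058. In these 9 lists 0 genes passed limma.

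The genes whose pattern over the 6 libraries was most like the mean profile of the 2 erythroid members were Trav19, Tnk2os, Fam25c, Slc47a2 and Hpd, with Pearson r between 0.980 and 0.991. For the 5 neutrophil members they were Top2a, Zfp513, Ang6, Aqp1 and Col22a1, with r between 0.988 and 0.991. They came from 1628 genes with an SD of at least 0.2 over the libraries, and r includes the difference between the groups. Every one of the 10 had a higher mean in SAHA, by 0.33 to 0.44. Both profiles were higher in SAHA themselves, so the high r required this direction. None of the other erythroid or neutrophil genes listed was among the 10. Listed genes below that SD could not be, so nothing is read from their absence.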

How the data were processed

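RNA of whole frontal cortex was amplified into biotin-labelled cDNA, per the labels' protocols. The authors' deposited log2 values come from RMA in Affymetrix Expression Console, per the submitters' processing notes, and were used unchanged. Of 35556 probe sets, 21789 pair with 1 gene symbol, and the brightest by mean over the 6 arrays stood for a gene. SAHA was compared with saline over all 19938 genes by a two-sided moderated test (limma 3.58.1 under R 4.3.3, lmFit then eBayes), with Benjamini-Hochberg adjustment, a threshold of 0.05 and no filter. The fit was tested on simulated data with changes larger than those of the genes named here, so that test does not cover changes of their size. Errors and p-values reflect the spread of these 6 libraries alone, which may be technical. The members, the 16 gene lists and the alternatives were chosen with earlier results of these data known. Besides the members, the rule for named genes took up to 4 per list with groups apart, by size of the difference, and 5 per profile by correlation. The nearest measured coding genes on either side of the members are given as well. The others are said to be chosen after their values were seen. Alternatives were other scalings, variance models, a signal filter, a replicate block and omitted libraries. Scan batches were not analysed here.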

Additional observations from a re-analysis of the deposited data

How the results depend on the processing

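The 4 members with groups apart kept their sign under the 3 other scalings, while Alas2 turned after median centring, Ngp turned after all 3, and Ltf turned only when libraries were left out. The number of members with groups apart went from 4 to 2 after quantile normalization and to 1 after cyclic loess. Quantile normalization and cyclic loess took S100a9, which is also the median of the 5 neutrophil members, to 0.14 and 0.12, and cyclic loess took Ngp to -0.069 and Ltf to -0.12. The neutrophil median was 0.15 without saline replicate 1 and SAHA replicate 3, and between 0.16 and 0.24 with single libraries left out. The median of the other erythroid genes was 0.13 after quantile normalization, 0.14 after median centring and 0.10 after cyclic loess, and that of the other neutrophil genes 0.034 after quantile normalization and 0.014 after cyclic loess. limma called 27 genes when run on genes at or above the median signal, 28 when the variance followed a trend and 31 when that trend was fitted robustly. None of these was a member or a listed gene, but only 1 member and 66 of 151 listed genes were bright enough to be tested in the first. The labels name no pairing of the samples. Deviations of same-numbered libraries from their group means correlated at -0.105, -0.0792 and 0.015. Such deviations cancel out within a group of 3, so these values cannot settle whether samples were paired. With the replicate block 0 genes were called. The cause of these changes was not tested. Signals near those of receptor genes that serve the nose limit what can be read from the 5 neutrophil members. The same limit holds for most genes of the erythroid and neutrophil lists.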
